A study of Mus musculus with 8 samples.

Results

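The deletion mutant delFG2 of the leukaemia fusion NUP98-HOXA9 was compared with the full-length fusion, 2 arrays against 2, chosen by their titles out of 8 arrays in 4 groups. All 8 arrays measured total RNA from cells of C57BL/6 mice. The other groups carried an empty vector or the deletion mutant delFG1, with 2 arrays each, numbered 1 and 2 as in every group. The study asked which target genes depend on the NUP98 portion of the fusion, and its title places that question beside the role of MLL in this leukaemia. The sources used here do not give the residues removed in delFG1 and delFG2, the cell type, how the constructs were introduced, whether the cDNA was human or mouse, or which array was used. They also do not say whether same-group arrays stem from different cultures. The p-values therefore cover the spread between these samples alone, and that spread may be technical.

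NUP98 is a protein of the nuclear pore whose phenylalanine-glycine (FG) repeats bind transport receptors at the pore, and, in leukaemia fusions, proteins that activate transcription. HOXA9 is a homeodomain protein of blood progenitors that binds DNA together with the TALE homeodomain proteins PBX and MEIS. MLL is a histone methyltransferase that keeps genes of the Hoxa cluster active in early blood cells, and their continued activity is a known feature of several leukaemias.

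Levels are given as log2(intensity + 1), so that a difference of 1 is a 2-fold change. Differences were tested with limma over 21789 probe sets that name a gene, with the array number as a block and a Benjamini-Hochberg adjusted p under 0.05. Median intensity was 80.7 to 83.2 on the 8 arrays, and the lowest intensity was 18.3, so no gene was at 0. With delFG2, 65 probe sets (0.298% of those tested) were higher and 37 (0.170%) were lower than with the full-length fusion. Of these, 8 higher and 12 lower ones differed at least 2-fold, and the median difference over all probe sets was -0.0054. All 102 called probe sets differed in 1 direction within both array numbers. A fit with the number as a block favours such probe sets, so this is no separate check of the calls.

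**Figure D1:**
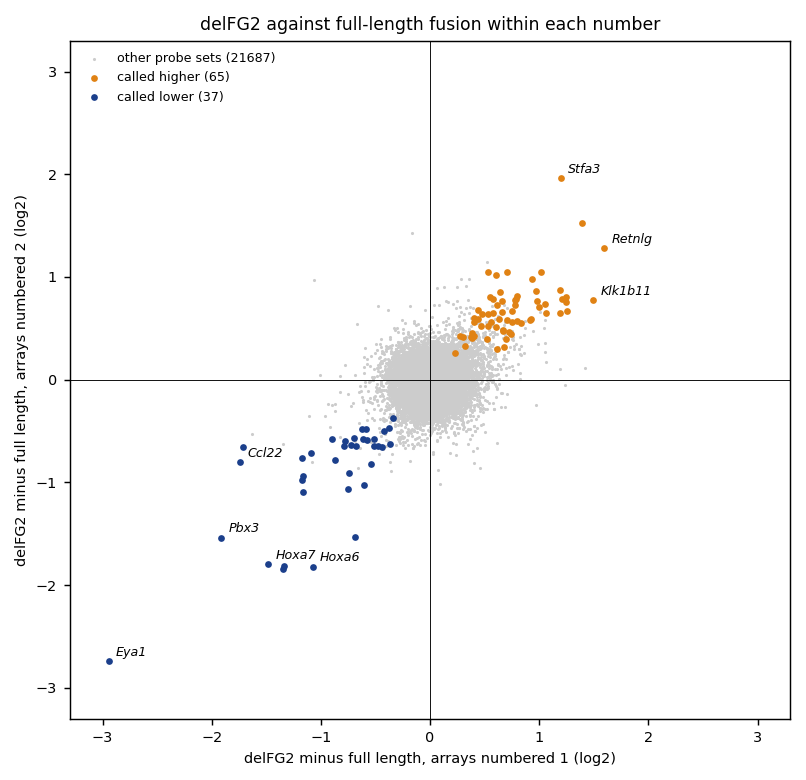
Each point is a probe set, with the log2 difference of delFG2 minus full length for arrays numbered 1 on the horizontal axis and for arrays numbered 2 on the vertical axis. The 65 probe sets called higher (orange) lie at the upper right and the 37 called lower (blue) at the lower left, with Eya1 farthest out at -2.94 and -2.74, while the rest (grey) gather around 0.

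The calls depended on the block. Without it, 0 probe sets (0%) were higher and 6 (0.0275%) were lower by limma, namely Eya1, Pbx3, Hoxa7, Hoxa5, Hoxc6 and Csn1s1, and 602 had an unadjusted p under 0.05, against 1829 with the block. The 4 arrays compared also bore on the counts: without the full-length array numbered 1, 6 probe sets were higher and 12 lower, and without that numbered 2, 8 and 21. Without the delFG2 array numbered 1 the counts were 6 and 11, and without that numbered 2 they were 9 and 10. Leaving out the empty vector array numbered 1 raised them to 229 and 95, and that numbered 2 to 225 and 95. Of the 15 largest falls, Eya1, Pbx3, Hoxa7, Hoxa9, Hoxa5, Btla and Hoxc6 passed without each of the 4 arrays in turn, and of the 15 largest rises Stfa3 and Stfa2 did.

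The coactivator gene Eya1, the HOX partner gene Pbx3 and a part of the Hoxa cluster were lower with delFG2. Of 10 measured Hoxa genes, 6 fell past the threshold and none of them rose. The median difference over the 10 was -0.83, against -0.0054 over all probe sets. The count of 6 became 4 and 3 without the delFG2 array numbered 1 or 2, and 5 and 4 without the full-length array numbered 1 or 2. Eya1 and the partner gene Pbx3 had the largest falls of the comparison. In bulk RNA such as this, fewer cells of a type and less RNA per cell cannot be told apart.

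Eya1, a transcriptional coactivator and phosphatase of the retinal determination network, was at 9.06 and 8.98 in the full-length arrays numbered 1 and 2 and at 6.11 and 6.24 in the delFG2 arrays. The delFG2 arrays thus lay far below both full-length arrays, with no overlap. The fall was 7.17-fold, a difference of -2.84 ± 0.12 (SE) with an adjusted p of 1.93e-06 by limma, and of 0.000199 without the block. None of the other 10 measured Eya, Dach and related genes passed: Dach1 differed by 0.41, Six4 by -0.21 and Eya2 by 0.13.

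Pbx3, a TALE protein that binds DNA together with HOX proteins, was at 10.63 and 10.24 with the full-length fusion and at 8.72 and 8.70 with delFG2. Both delFG2 arrays lay below both full-length arrays, and close to each other. The fall was 3.31-fold, a difference of -1.73 ± 0.11 with an adjusted p of 6.65e-05, and of 0.0074 without the block. Meis1, another TALE partner, was at 7.84 and 7.30 with the full-length fusion and at 7.05 and 6.66 with delFG2. Its groups did not overlap, and the fall of 1.64-fold, with a difference of -0.72 ± 0.10, had an adjusted p of 0.012. Meis1 was also lower in the arrays numbered 2 than in those numbered 1 in every group, its call was lost without the block, and its adjusted p was 0.1 to 0.22 without any of the 4 arrays. Pbx3 and Meis1 were the 2 of 10 measured TALE genes that fell. Pbx4 (-0.17) and Pbx2 (0.07) did not pass, and the median of the 10 was -0.02.

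Hoxa7, a homeodomain gene from the middle of the cluster, was at 9.01 and 9.0 with the full-length fusion and at 7.53 and 7.20 with delFG2. Its groups did not overlap and the difference was -1.64 ± 0.13 (adjusted p 0.000332). Hoxa9, the mouse gene of the HOX portion of the fusion, was at 9.41 and 9.43 with the full-length fusion and at 8.06 and 7.59 with delFG2. Both delFG2 arrays were again the lower ones, by -1.60 ± 0.13 (adjusted p 0.000332, and 0.0625 without the block). Whether the Hoxa9 probe set also reads the introduced fusion is not known. Hoxa5 was at 7.60 and 7.82 against 6.26 and 6.01, a difference of -1.58 ± 0.13 (adjusted p 0.000332). Hoxa6 was at 8.44 and 8.87 against 7.36 and 7.05, a difference of -1.45 ± 0.16 (adjusted p 0.00425, and 0.0693 without the block). In both genes the delFG2 arrays did not overlap the full-length arrays, and the gap was wider between the arrays numbered 2. Without a delFG2 array, the adjusted p of Hoxa6 was 0.0507 (without that numbered 1) and 0.0944 (without that numbered 2).

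Hoxa3 and Hoxa10 of the same cluster fell as well. Hoxa3 was at 6.72 and 7.08 with the full-length fusion and at 6.03 and 5.55 with delFG2, a difference of -1.11 ± 0.16 (adjusted p 0.012). Hoxa10 was at 6.62 and 6.49 against 6.10 and 5.91, a difference of -0.55 ± 0.10 (adjusted p 0.0387). Neither overlapped between the groups, but neither passed without the block, with adjusted p-values of 0.21 and 0.574. Hoxa3 also missed the threshold without the array numbered 2 of either group (0.174 and 0.183), and Hoxa10 without any of the 4 arrays (0.166 to 0.415). Hoxa2 (-0.41), Hoxa4 (-0.10), Hoxa11 (0.04) and Hoxa13 (-0.01) did not pass. The summed intensity of the 10 Hoxa genes was 2198 and 2407 with the full-length fusion, 1077 and 892 with delFG2, 1463 and 1225 with delFG1 and 783 and 763 with the empty vector. On this sum the delFG2 arrays lay below the delFG1 arrays and above the empty vector arrays.

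Outside the Hoxa cluster, 2 of 27 measured Hox genes fell, Hoxc6 and Hoxb5. Hoxc6 was at 6.45 and 6.25 with the full-length fusion and at 5.27 and 5.27 with delFG2, a difference of -1.08 ± 0.10 (adjusted p 0.00095, and 0.013 without the block). Hoxb5 was at 5.88 and 5.92 against 5.20 and 5.28, a difference of -0.66 ± 0.07 (adjusted p 0.00292, and 0.0552 without the block). Neither gene's groups overlapped, and both delFG2 levels lay near the low end of the arrays' range, where a log2 difference understates a change. Hoxc5 (-0.66) and Hoxb3 (-0.31) did not pass, and the median of the 27 was -0.03. The count of 2 became 1 without either delFG2 array or the full-length array numbered 1, and 3 without that numbered 2 or either empty vector array. Hoxb5 missed the threshold in the former 3 cases (adjusted p 0.0507 to 0.0678).

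**Figure D2:**
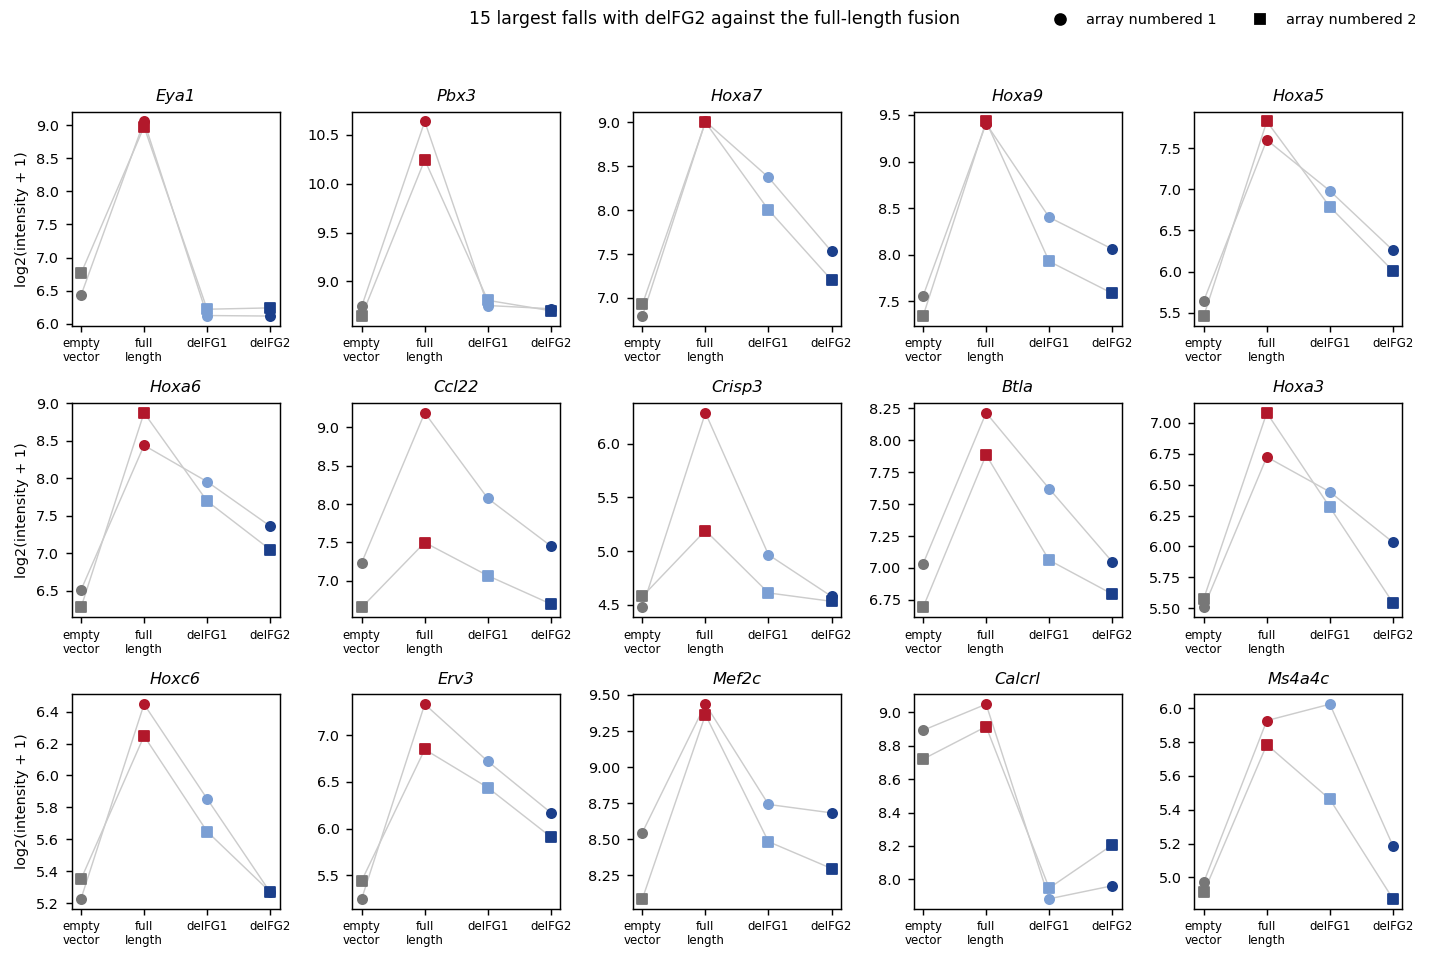
Each panel is a gene among the 15 largest falls with delFG2, with log2(intensity + 1) on the vertical axis (its range differs between panels) and the 4 groups on the horizontal axis. Circles are arrays numbered 1, squares arrays numbered 2, and lines join arrays of the same number. Only genes without overlap were picked, so in every panel both delFG2 points lie below both full-length points. In Eya1 they are at 6.11 and 6.24 against 9.06 and 8.98.

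The promoters of the 4 Hoxa genes with the largest falls are shown because these genes fell together. Each is the 250 bases before the annotated start, from RefSeq for assembly GRCm38.p6, 5′ to 3′ in the direction of the gene, with CpG dinucleotides in capitals. All 4 lie on the minus strand, at chr6:52218574-52218823 (Hoxa7), chr6:52227371-52227620 (Hoxa9), chr6:52204588-52204837 (Hoxa5) and chr6:52208673-52208922 (Hoxa6).
Hoxa7: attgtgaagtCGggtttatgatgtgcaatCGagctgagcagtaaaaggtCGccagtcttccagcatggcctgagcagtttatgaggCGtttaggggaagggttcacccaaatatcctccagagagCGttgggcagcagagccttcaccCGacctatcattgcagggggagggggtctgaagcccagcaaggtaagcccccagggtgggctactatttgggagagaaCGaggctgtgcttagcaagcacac
Hoxa9: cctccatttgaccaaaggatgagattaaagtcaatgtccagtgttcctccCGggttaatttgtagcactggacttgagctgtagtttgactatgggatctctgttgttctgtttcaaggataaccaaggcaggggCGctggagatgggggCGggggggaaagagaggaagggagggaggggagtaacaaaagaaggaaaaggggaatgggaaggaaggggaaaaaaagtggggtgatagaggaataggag
Hoxa5: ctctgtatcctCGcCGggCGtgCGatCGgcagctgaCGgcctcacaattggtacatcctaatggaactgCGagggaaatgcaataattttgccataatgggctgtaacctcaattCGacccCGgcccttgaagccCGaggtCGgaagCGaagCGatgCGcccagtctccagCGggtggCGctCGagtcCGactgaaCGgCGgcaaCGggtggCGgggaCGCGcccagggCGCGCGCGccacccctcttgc
Hoxa6: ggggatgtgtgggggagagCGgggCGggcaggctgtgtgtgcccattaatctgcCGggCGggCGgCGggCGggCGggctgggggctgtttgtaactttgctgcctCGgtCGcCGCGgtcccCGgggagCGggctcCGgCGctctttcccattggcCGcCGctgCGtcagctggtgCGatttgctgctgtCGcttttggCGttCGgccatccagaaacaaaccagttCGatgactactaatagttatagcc
The 4 differ in CpG content, with 28 CpG in Hoxa5 and 24 in Hoxa6 against 7 in Hoxa7 and 3 in Hoxa9. The median was 6 over all 32851 single promoters of the table. By gene, taking the promoter with the most CpG, it was 12 over tested genes and 7.5 over the lower genes. These medians by gene leave out a single chromosome, so they are not the same measure as the 6. The count was added after the data were seen.

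A motif bound by HOX and PBX proteins as a pair, TGATNNAT, was searched on both strands of the same 250 bases as the sole motif. Of all single promoters, 7.68% held the motif. A gene was counted if any of its promoters held it, which gave 7.31% of tested genes with a promoter. The counts by gene leave out the same single chromosome as the CpG medians by gene, unlike the 7.68%. Of the 37 lower genes, 30 had a promoter in the table, and 1 of these 30 (3.33%) held the motif. That gene was Csn1s1, which encodes the milk protein alpha-S1 casein and fell with delFG2. Its promoter lies on the plus strand of GRCm38.p6 at chr5:87665958-87666207, and capitals mark the match, which reads on the opposite strand.
Csn1s1: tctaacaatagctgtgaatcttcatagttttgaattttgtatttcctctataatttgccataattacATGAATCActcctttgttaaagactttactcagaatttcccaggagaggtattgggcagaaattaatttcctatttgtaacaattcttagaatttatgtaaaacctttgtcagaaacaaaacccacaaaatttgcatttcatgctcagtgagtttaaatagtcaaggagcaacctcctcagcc
None of the printed Hoxa promoters held these letters. Of the 62 genes called higher, 49 had a promoter outside the chromosome left out, and 3 of these held the motif.

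Csn1s1 itself was at 5.84 and 5.70 with the full-length fusion and at 4.97 and 4.92 with delFG2. Its groups did not overlap, with a difference of -0.83 ± 0.08 and an adjusted p of 0.00114, and of 0.0114 without the block. It was the 1 of 8 measured casein cluster genes that fell. Csn2, which encodes beta-casein in the same cluster, was at 9.91 and 11.06 with the full-length fusion and at 11.15 and 11.01 with delFG2, and did not pass (0.59, adjusted p 0.437).

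Several further genes of receptors, signalling and transcription fell. Mef2c, a transcription factor of muscle and blood cells, was at 9.44 and 9.36 with the full-length fusion and at 8.68 and 8.30 with delFG2, a difference of -0.91 ± 0.11 (adjusted p 0.00435). It was the 1 of 7 measured Mef2 and class IIa histone deacetylase genes to fall, while Mef2a (0.30) and Mef2d (-0.08) did not pass. Calcrl, a receptor subunit for calcitonin gene-related peptide and adrenomedullin, was at 9.05 and 8.92 against 7.96 and 8.21, a difference of -0.90 ± 0.11 (adjusted p 0.00641). Cd34, a surface marker of blood progenitors, was at 10.94 and 10.43 against 10.31 and 9.95, a difference of -0.55 ± 0.08 (adjusted p 0.0139). The delFG2 arrays lay below the full-length arrays in all 3 genes, most narrowly in Cd34, where 10.31 stood against 10.43. Calcrl and Cd34 were the 2 of 20 measured stem and progenitor surface and niche genes that fell. Cd9, a tetraspanin of that list, rose from 10.17 and 10.40 to 10.64 and 10.92 (0.50, adjusted p 0.0333). Without the block none of Mef2c, Calcrl, Cd34 and Cd9 passed by limma, with an adjusted p of 0.143 for Calcrl and 0.767 for Mef2c.

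Btla, an inhibitory receptor of lymphocytes, was at 8.22 and 7.89 with the full-length fusion and at 7.05 and 6.80 with delFG2, a difference of -1.13 ± 0.11 (adjusted p 0.00142). The chemokine gene Ccl22 was at 9.19 and 7.50 against 7.45 and 6.70, a difference of -1.27 ± 0.21 (adjusted p 0.0256). Its groups nearly touched, and the fall was -1.74 for number 1 and -0.80 for number 2. Crisp3, a cysteine-rich secretory protein, was at 6.29 and 5.19 against 4.58 and 4.53, with -1.71 and -0.66 between the arrays of each number (-1.19 ± 0.21, adjusted p 0.0347). For both genes the full-length array numbered 1 stood above the other 7 arrays, and without it the falls were -0.81 and -0.69, with adjusted p-values of 0.22 and 0.172. Ccl17, which like Ccl22 binds the chemokine receptor CCR4, was at 10.43 and 9.22 against 9.26 and 8.46, with overlapping groups and a difference of -0.97 (adjusted p 0.00579).

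Erv3, an endogenous retroviral gene, fell by 1.05 (adjusted p 0.00857) and Ms4a4c, of the membrane-spanning 4A family, by 0.83 (adjusted p 0.00744). Of 27 adhesion and growth factor signalling genes, 2 fell: the ephrin receptor gene Epha3, from 6.05 and 5.83 to 5.15 and 5.26 (adjusted p 0.00585), and Rasgrp3, an activator of Ras, by 0.58 (adjusted p 0.0255). In Epha3 both delFG2 arrays lay below both full-length arrays. Igfbp7 (-0.37) and Epha7 (-0.26) did not pass. The count of 2 in the adhesion and signalling list became 0 without either delFG2 array or the full-length array numbered 1, and 1 without that numbered 2. The adjusted p without the block was 0.39 for Erv3, 0.795 for Ms4a4c, 0.059 for Epha3 and 1 for Rasgrp3.

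Genes of mature granulocytes, mast cells and inflammation were among those higher with delFG2. Of 24 measured neutrophil granule and maturation genes, 6 rose and none of them fell: Retnlg, Mmp9, Olfm4, Cxcr2, Camp and Itgam. Of all tested probe sets, 0.298% were higher. The median difference over the 24 was 0.26, against -0.0054 over all probe sets. Medians were close to this in the inflammatory cytokine, chemokine and receptor list (0.24) and in the eosinophil list (0.23). The count of 6 fell to 0 without the delFG2 array numbered 1 or the full-length array numbered 1, and to 2 without the array numbered 2 of either group. It was 10 without either empty vector array. The rises were smaller than the largest falls and reached 1.58 in Stfa3. None of the 65 higher probe sets passed without the block. Among the 15 largest rises, the adjusted p without the block was 0.763 or above.

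Stfa3 and Stfa2 encode stefin A inhibitors of cysteine proteases, abundant in neutrophils. Stfa3 was at 6.15 and 6.31 with the full-length fusion and at 7.35 and 8.27 with delFG2, a rise of 2.99-fold (1.58 ± 0.15, adjusted p 0.00142). Stfa2 was at 8.58 and 9.28 against 9.98 and 10.80, a rise of 2.75-fold (1.46 ± 0.09, adjusted p 6.65e-05). The delFG2 arrays lay above the full-length arrays in both, and the array numbered 2 was the higher of each pair. Csta3, of the same family but outside the list, rose from 5.14 and 5.20 to 5.74 and 6.22 (0.81 ± 0.10, adjusted p 0.00656). Stefin A genes resemble each other closely in sequence, so which copy a probe set reads is uncertain. The cystatin genes Cstb (0.11) and Cst7 (-0.03) did not pass, and 2 of the 5 measured genes of the stefin and cystatin list rose.

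Retnlg, a resistin-like secreted protein of myeloid cells, was at 6.87 and 6.94 with the full-length fusion and at 8.46 and 8.22 with delFG2, a rise of 2.71-fold (1.44 ± 0.21, adjusted p 0.0148). The full-length arrays were close to each other and both delFG2 arrays lay clearly above them. Mmp9, the gelatinase of neutrophil granules, was at 8.72 and 9.26 against 9.74 and 10.31 (1.03 ± 0.13, adjusted p 0.00776). Olfm4, a glycoprotein of neutrophil granules, was at 8.90 and 9.97 against 10.09 and 10.84 (1.03 ± 0.12, adjusted p 0.00426). Cxcr2, the receptor through which neutrophils sense several chemokines, was at 8.46 and 9.17 against 9.43 and 9.93 (0.87 ± 0.12, adjusted p 0.0109). In these 3 genes the groups did not overlap, but the full-length array numbered 2 lay close below the delFG2 array numbered 1, most narrowly in Olfm4. Camp, the cathelicidin antimicrobial peptide, rose by 0.76 (adjusted p 0.0049) and Itgam, an integrin of myeloid cells, by 0.32 (adjusted p 0.033).

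Granule enzymes of earlier myeloid cells did not pass. Mpo, myeloperoxidase, was at 13.10 and 13.05 with the full-length fusion and at 13.08 and 12.96 with delFG2. Elane, neutrophil elastase, was at 13.14 and 13.25 against 13.17 and 13.16. The groups overlapped in both, and the differences were -0.05 and -0.03. Csf1r, the receptor for macrophage colony-stimulating factor, overlapped between the groups as well, at 9.86 and 9.82 against 9.69 and 10.14.

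Ceacam10, a cell adhesion molecule, was at 9.44 and 10.56 with the full-length fusion and at 10.68 and 11.36 with delFG2 (1.02 ± 0.13, adjusted p 0.00641). Slfn4, a schlafen gene of myeloid cells, was at 7.58 and 8.61 against 8.77 and 9.26 (0.92 ± 0.12, adjusted p 0.00849). In both genes the full-length array numbered 2 lay just below the delFG2 array numbered 1, so the groups barely failed to overlap. Klk1b11, a kallikrein protease, rose by 1.13 (adjusted p 0.0166), Fabp7, a fatty acid binding protein, by 1.0 (adjusted p 0.017), and Gja5, the gap junction protein connexin 40, by 0.86 (adjusted p 0.00641). These 3 also had higher levels in the arrays numbered 2 than in those numbered 1 in all 4 groups.

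**Figure D3:**
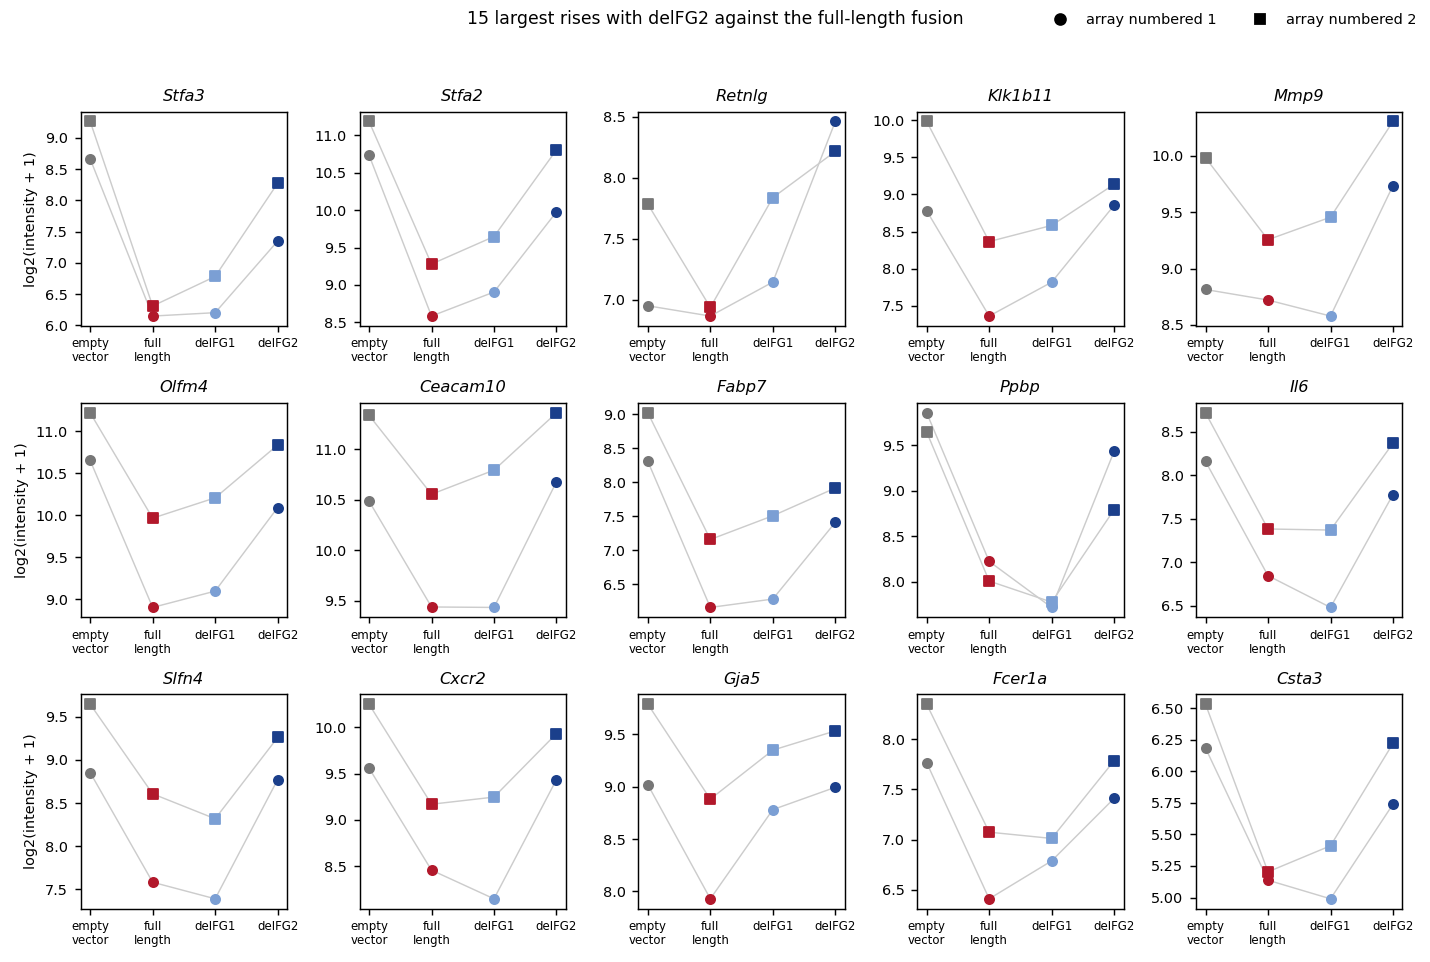
Each panel is a gene among the 15 largest rises with delFG2, with log2(intensity + 1) on the vertical axis (its range differs between panels) and the 4 groups on the horizontal axis. Circles are arrays numbered 1 and squares arrays numbered 2. Only genes without overlap were picked, so in every panel both delFG2 points lie above both full-length points. Squares mostly lie above circles, except in 3 groups of Ppbp and in the delFG2 group of Retnlg. There the circle is at 8.46 and the square at 8.22.

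Ppbp, a platelet chemokine, was at 8.22 and 8.01 with the full-length fusion and at 9.43 and 8.79 with delFG2 (1.0 ± 0.14, adjusted p 0.00979), without overlap. It was the 1 of 12 measured megakaryocyte and platelet genes that rose. Pf4, the neighbouring platelet chemokine, was at 9.41 and 8.94 against 9.98 and 9.66 and did not pass (0.64, adjusted p 0.0558). Of 26 measured inflammatory cytokine, chemokine and receptor genes, Il6 and Ccl6 rose, with a median of 0.24 over the list. Il6, an inflammatory cytokine, was at 6.85 and 7.38 against 7.78 and 8.37 (0.96 ± 0.11, adjusted p 0.00508), with no overlap and nearly the same gap within each number, 0.93 and 0.98. Ccl6, a chemokine of myeloid cells, rose by 0.36 (adjusted p 0.012). Ccr1 (0.50) and Il1rn (0.35) did not pass. The count of 2 became 0 without the delFG2 array numbered 2 or either full-length array, and 7 without either empty vector array. Neither Il6 nor Ccl6 passed when any 1 of the 4 compared arrays was left out, so the 2 genes called without the delFG2 array numbered 1 were others. Ppbp missed the threshold without any 1 of the 4 except the delFG2 array numbered 2.

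Mast cell and basophil genes were measured for 18 members, of which Fcer1a and Gzmb rose. Fcer1a, the binding chain of the IgE receptor, was at 6.41 and 7.07 with the full-length fusion and at 7.41 and 7.79 with delFG2 (0.86 ± 0.12, adjusted p 0.012). Gzmb, granzyme B, was at 8.63 and 9.31 against 9.55 and 9.89 (0.75 ± 0.10, adjusted p 0.00831). Neither overlapped, though the arrays of Gzmb at 9.31 and 9.55 were close. Cpa3 (0.31) and Cd200r3 (0.49) did not pass. The count of 2 became 0 without either delFG2 array or the full-length array numbered 1, 1 without that numbered 2 and 3 without either empty vector array. Among 25 monocyte and macrophage genes the scavenger receptor gene Msr1 (0.56, adjusted p 0.0106) and the mannose receptor gene Mrc1 (0.64, adjusted p 0.0333) rose, and among 7 eosinophil genes the ribonuclease gene Ear6 did (0.56, adjusted p 0.00665). In Msr1, Mrc1 and Ear6 the groups overlapped, since the full-length array numbered 2 stood above the delFG2 array numbered 1. For Ear6 these arrays were at 10.60 and 9.96. None of the 3 genes passed when any 1 of the 4 compared arrays was left out, and without either empty vector array 4 monocyte and macrophage genes were higher and 1 lower, and 2 eosinophil genes were higher.

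In single members of other lists, Rhag, a membrane protein of red cells, rose by 0.59 (adjusted p 0.0421, 1 of 15 erythroid genes). The extracellular matrix gene Thbs1 rose by 0.41 (adjusted p 0.0138, 1 of 15 stroma and endothelium genes). Dusp6, a phosphatase that acts on ERK, rose by 0.46 (adjusted p 0.0255, 1 of 27 immediate-early genes). The glucose transporter gene Slc2a3 rose by 0.50 (adjusted p 0.0256, 1 of 17 glycolysis and hypoxia genes). All 4 calls were lost when any 1 of the 4 compared arrays was left out. Such counts are small against the size of each list, and the 4 list medians were 0.10, 0.03, 0.10 and -0.03.

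No member passed in the lists of leukaemia self-renewal regulators (23 measured), dendritic cell and MHC class II genes (17), B lymphoid genes (16), T and NK lymphoid genes (18), interferon-stimulated genes (23), prostaglandin and leukotriene enzymes (18), MLL and associated chromatin complex genes (27), nucleoporins and nuclear transport genes (21), cell cycle genes (31), p53 targets and cell cycle inhibitors (18), amino acid and unfolded protein response genes (23), cholesterol synthesis genes (19) and the Myc and Max network (12). Their medians lay between -0.17, in the dendritic cell and MHC class II list, and 0.08. These counts rested on the empty vector arrays: without either of them, 5 dendritic cell and MHC class II genes, 1 self-renewal regulator and 1 prostaglandin and leukotriene enzyme gene passed as lower, and 2 self-renewal regulators and 1 gene of the Myc and Max network as higher. Without the full-length array numbered 2, 1 dendritic cell and MHC class II gene passed as lower. In the dendritic cell list Ccr7, a chemokine receptor of migrating dendritic cells, was at 8.58 and 7.10 with the full-length fusion and at 6.95 and 6.58 with delFG2 (-1.08, adjusted p 0.149). Its full-length array numbered 1 stood well above the other 7, as for Ccl22 and Crisp3. The summed intensity of the list's 17 genes was 9802 and 6839 with the full-length fusion, 6497 and 5739 with delFG2, 7481 and 5771 with delFG1 and 5790 and 6076 with the empty vector. The part of this list in the falls of Ccl22, Crisp3 and Ccr7 was not tested.

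**Figure D4:**
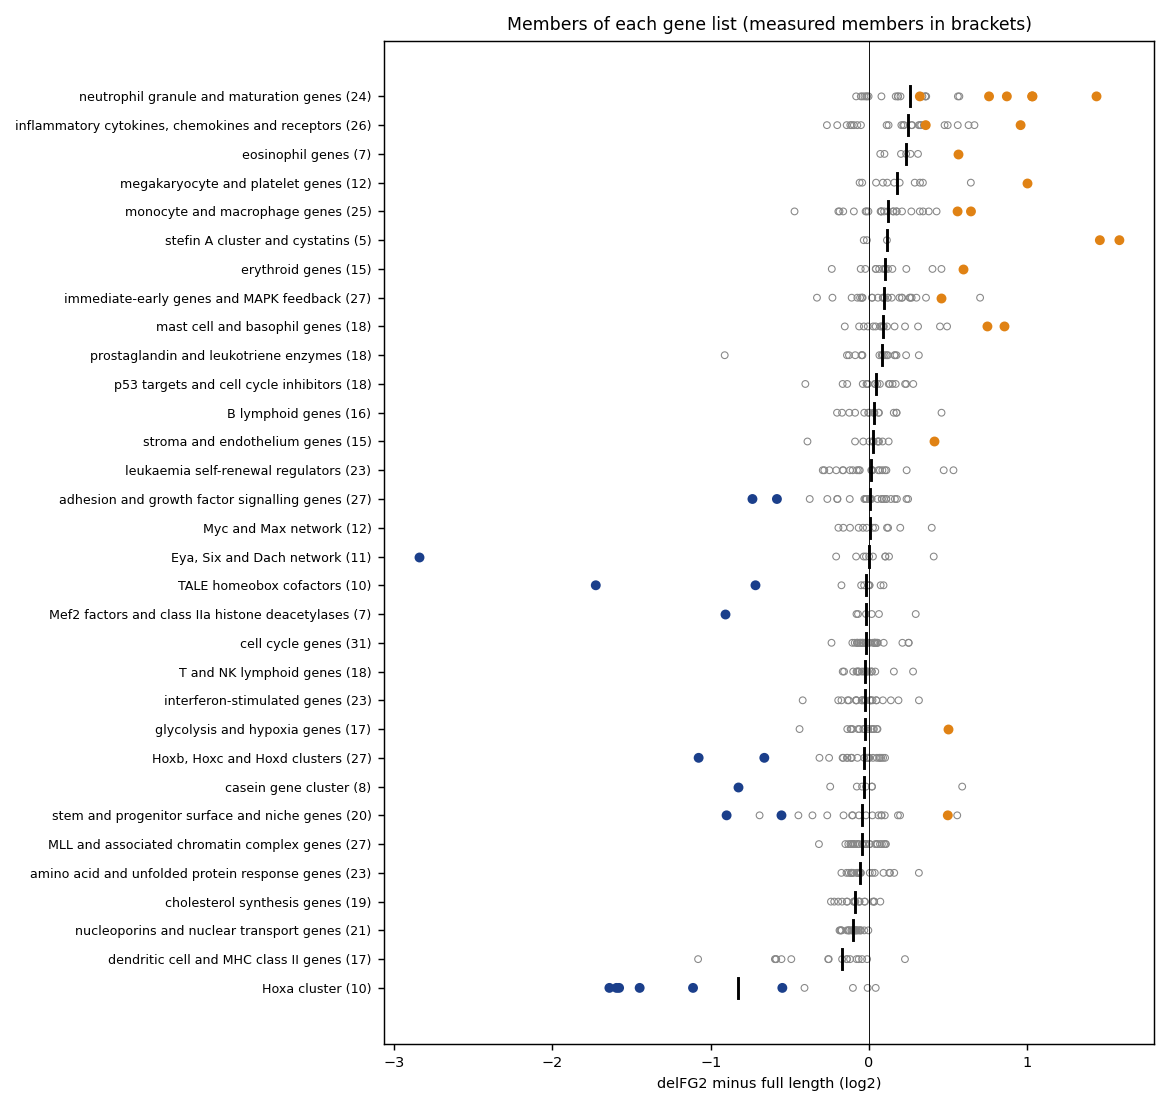
Each point is a measured gene of a list, placed by its log2 difference of delFG2 minus full length, with 32 lists down the page and the number of measured members in brackets. Orange and blue points passed the test, open points did not, and black bars are list medians; the Hoxa cluster has the lowest median, -0.83, and the neutrophil list the highest, 0.26.

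Further genes linked to this fusion and to blood progenitors did not pass. Nup98, the other gene of the fusion, was at 11.11 and 10.99 with the full-length fusion and at 11.01 and 10.94 with delFG2 (-0.08). The groups overlapped, and whether this probe set reads the introduced fusion is not known. Flt3, a growth factor receptor of early progenitors, was at 6.57 and 5.67 against 5.82 and 5.53 (-0.45), and Kit, the stem cell factor receptor, at 9.25 and 8.94 against 9.24 and 9.06 (0.06). The 2 arrays of the full-length group were farther apart than the group means in Flt3, and the groups overlapped in both genes. Mecom, a zinc finger gene of stem cells, differed by -0.29, Mycn by -0.12, Myc by -0.16 and Cdk6, a cell cycle kinase, by -0.08. None of these passed, with adjusted p-values of 0.146 to 0.964.

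The array number moved with many of the higher genes. Of the 65 higher probe sets, 57 (87.7%) were also higher in the arrays numbered 2 than in those numbered 1 over the 4 groups, against 6.43% of all tested, and 40 had groups that did not overlap. Of the 37 lower probe sets, 13 (35.1%) were lower in the arrays numbered 2, against 4.75% of all tested, and 35 had groups that did not overlap. Groups did not overlap in 25.9% of all tested. What the numbers stand for is not known, and their part in the rises was not tested beyond the block.

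Marker lists of blood cell types moved with both the number and the group. The summed intensity of 24 neutrophil genes was 79090 and 94072 with the full-length fusion, 92302 and 102807 with delFG2, 78530 and 93812 with delFG1 and 92649 and 105918 with the empty vector. The sum of 25 monocyte and macrophage genes was 21064 and 24509 with the full-length fusion, 22802 and 28437 with delFG2, 20727 and 24535 with delFG1 and 26361 and 33628 with the empty vector. In both lists the delFG2 array was above the full-length array of the same number, but the groups overlapped. The 18 mast cell and basophil genes summed to 23121 and 28404 with the full-length fusion and to 25828 and 30356 with delFG2, and the 7 eosinophil genes to 4619 and 7191 against 5470 and 9457. Sums higher with delFG2 without overlap between the groups were those of 12 megakaryocyte and platelet genes and of 15 stroma and endothelium genes. The former were at 4752 and 4511 with the full-length fusion and at 5973 and 5364 with delFG2. The latter were at 7994 and 6904 against 9951 and 8607. With the empty vector these sums were 5646 and 5799, and 9762 and 9698. Such sums follow the brightest genes more than the list as a whole. Thbs1 of the stroma list, at 12.52 and 12.25 against 12.92 and 12.68, made up most of that sum. The median difference was 0.18 over the megakaryocyte and platelet list and 0.03 over the stroma and endothelium list. The dendritic cell list did not overlap between the groups either, but its sum was lower with delFG2. That sum was at 9802 and 6839 with the full-length fusion and at 6497 and 5739 with delFG2. No marker of any list was at 0. The part of these cell types in the rises was not tested.

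Where delFG2 differed from delFG1 was tested directly. In that comparison 88 probe sets (0.404%) were higher and 29 (0.133%) lower with delFG2, with 0 (0%) in either direction without the block by limma, where 683 had an unadjusted p under 0.05. This comparison shares the delFG2 arrays with the comparison above, so values are given side by side. Eya1 and Pbx3, which had the largest falls against the full-length fusion, did not differ between the mutants past the threshold, nor did Meis1 and Mef2c. Eya1 was at 6.12 and 6.22 with delFG1, level with delFG2 (0.01, 95% interval -0.25 to 0.26), and Pbx3 was at 8.75 and 8.81 (-0.07, interval -0.31 to 0.17). For Meis1 the interval was -0.12 to 0.33 and for Mef2c -0.35 to 0.11. Against the full-length fusion, delFG1 differed by -2.85 in Eya1, -1.66 in Pbx3, -0.82 in Meis1 and -0.79 in Mef2c.

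Within the Hoxa cluster the mutants differed, with delFG2 at the lower level. Hoxa7 was at 8.37 and 8.0 with delFG1 and at 7.53 and 7.20 with delFG2, a difference of -0.82 (interval -1.11 to -0.53, adjusted p 0.0258). Hoxa5 was at 6.98 and 6.79 with delFG1 and at 6.26 and 6.01 with delFG2, a difference of -0.75 (interval -1.03 to -0.47, adjusted p 0.0342). The mutants' arrays did not overlap in either gene. Hoxa9 (-0.34, adjusted p 0.467), Hoxa6 (-0.62, adjusted p 0.193), Hoxa3 (-0.59, adjusted p 0.21) and Hoxa10 (-0.05, adjusted p 0.968) did not pass. Hoxa5 missed the threshold without any of the 4 arrays (0.0636 to 0.414) and Hoxa7 without 3 of them (0.147 and 0.262 without a delFG2 array, 0.486 without the delFG1 array numbered 1).

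Among genes higher with delFG2 than with delFG1, the 8 largest differences were in Ppbp (1.36), Stfa3 (1.32), Slfn4 (1.16), Il6 (1.15), Stfa2 (1.11), Mmp9 (1.0), Cxcr2 (0.99) and Kcnn3, a potassium channel gene (0.91). Ppbp was at 7.72 and 7.78 with delFG1 against 9.43 and 8.79 with delFG2 (interval 1.06 to 1.67, adjusted p 0.00404). Il6 was at 6.48 and 7.37 with delFG1 against 7.78 and 8.37 with delFG2 (interval 0.89 to 1.40, adjusted p 0.00404). Both delFG1 arrays were below both delFG2 arrays in each. Of the 24 neutrophil genes, 6 were higher with delFG2 than with delFG1 and none of them lower, with a median of 0.30. Pf4 (0.82) and Id2, a repressor of basic helix-loop-helix factors (0.43), passed in this comparison although not against the full-length fusion. None of these 8 calls held without every array in turn: without the delFG1 array numbered 1, Ppbp, Stfa3, Slfn4 and Il6 had adjusted p-values of 0.0536 each.

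Of the 8 largest falls against delFG1, all but Hoxa7 were genes with their highest group mean in delFG1. A ranking by the distance of delFG2 below delFG1 itself favours such genes. Tmem47, which encodes a transmembrane junction protein, was at 9.31 and 8.0 with delFG1, at 7.24 and 5.74 with delFG2, at 5.82 and 5.63 with the full-length fusion and at 5.34 and 5.36 with the empty vector. The difference between the mutants was -2.16 (interval -2.83 to -1.49, adjusted p 0.0158), and delFG2 against the full-length fusion did not pass (0.77, adjusted p 0.499). Hpgd, which degrades prostaglandins, was at 8.10 and 6.86 with delFG1 and at 6.40 and 5.37 with delFG2 (-1.59, adjusted p 0.0197). The delFG1 arrays lay above the delFG2 arrays in both genes. The detoxification gene Gstt1 (-1.25), the adhesion molecule Vcam1 (-1.14), Gpx8 (-1.08), Ugt8a, which makes galactosylceramide (-1.01), and Glyat (-0.89) were lower with delFG2 too. None of these 5 passed against the full-length fusion, with differences of -0.35, 0.02, -0.14, -0.29 and 0.23. All 7 calls were lost without either delFG2 array or without the delFG1 array numbered 1.

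**Figure D5:**
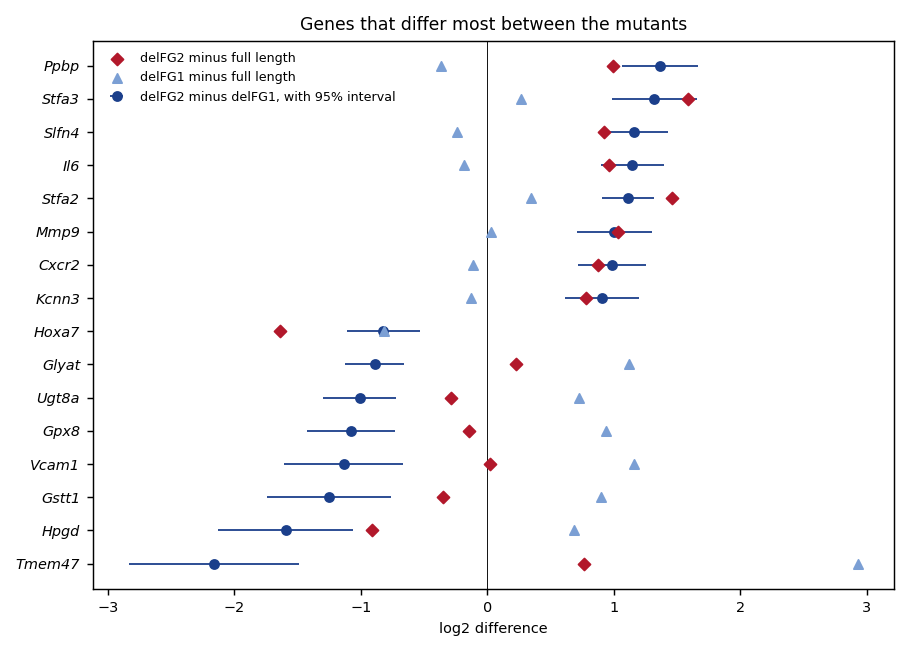
The horizontal axis is a log2 difference, for the 16 genes that differed most between the mutants past the threshold. Dark circles are delFG2 minus delFG1 with the 95% interval as a line, diamonds delFG2 minus full length and triangles delFG1 minus full length; for Hoxa7 the circle and the triangle both lie at -0.82 and the diamond at -1.64, while for Tmem47 the triangle lies far to the right at 2.93.

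Against the empty vector, 23 probe sets (0.106%) were higher and 87 (0.399%) lower with delFG2. Without the block 1 (0.00459%) was higher, Csn2, and 0 (0%) were lower by limma, where 965 had an unadjusted p under 0.05. Setting the full-length fusion against these empty vector arrays gave 475 higher (2.18%) and 965 lower (4.43%), and the comparisons share those arrays. Without the block that comparison gave 22 higher (0.101%) and 5 lower (0.0229%), so the balance of directions turned. In the Hoxa cluster no member passed between delFG2 and the empty vector, while 7 of 10 were higher with the full-length fusion. Hoxa6 was at 6.51 and 6.28 with the empty vector, below both delFG2 arrays (0.81, adjusted p 0.0615). Hoxa5 (0.58, adjusted p 0.0802), Hoxa7 (0.51, adjusted p 0.135) and Hoxa9 (0.37, adjusted p 0.283) likewise did not pass, and their intervals were 0.31 to 0.86, 0.22 to 0.80 and 0.09 to 0.65. The full-length fusion was above the empty vector by 2.26, 2.16, 2.15 and 1.97 in these 4 genes. Eya1 was at 6.43 and 6.76 with the empty vector, above both delFG2 arrays, and did not pass (-0.42, adjusted p 0.171). Pbx3 was at 8.75 and 8.65 with the empty vector, overlapping delFG2 (0.01, interval -0.22 to 0.25).

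Other genes were higher with delFG2 than with the empty vector. Csn2 was at 6.74 and 7.22 with the empty vector and at 11.15 and 11.01 with delFG2, a difference of 4.09 (adjusted p 2.58e-05, and 0.0136 without the block), beside 3.51 for the full-length fusion. Myl10, a myosin light chain gene, was higher than with the empty vector by 2.26 (adjusted p 0.00098) and by 2.51 with the full-length fusion. Abcg3, an ABC transporter gene, was higher by 2.05 (adjusted p 0.00265) and by 2.13. In these 3 genes delFG2 and the full-length fusion did not differ past the threshold (0.59, -0.25 and -0.08), and the delFG2 arrays lay far above both empty vector arrays. Serpina3b (1.06), B4galt4 (0.86), the transcriptional repressor gene Gfi1 (0.80) and the chemokine receptor gene Ccr4 (0.78) were also higher. Without the delFG2 array numbered 1 these 4 missed the threshold (adjusted p 0.355 to 0.536), as did Abcg3 (0.182), and without the block none of the 5 passed.

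Genes lower with delFG2 than with the empty vector included some that rose against the full-length fusion. Stfa3 was at 8.66 and 9.26 with the empty vector, above both delFG2 arrays (-1.15, adjusted p 0.0169), beside -2.73 for the full-length fusion. Mrgpra6, a Mas-related receptor gene, was at 7.65 and 8.13 with the empty vector, at 5.99 and 6.89 with delFG2 and at 5.02 and 6.03 with the full-length fusion. It differed by -1.45 from the empty vector (adjusted p 0.00467) and by 0.91 from the full-length fusion (adjusted p 0.0256). Fabp7 was lower than with the empty vector (-1.0, adjusted p 0.0307), beside -2.0 for the full-length fusion. Bhlhe41 (-0.90), the liver X receptor gene Nr1h3 (-0.89), Ralgds (-0.88), Tgfbi (-0.85) and Lipn (-0.84) were lower than with the empty vector and did not pass against the full-length fusion. Calcrl was apart from this pattern: the empty vector, at 8.89 and 8.72, lay near the full-length fusion, and delFG2 was lower than the empty vector (-0.72, adjusted p 0.0307). Without the delFG2 array numbered 1, Stfa3, Mrgpra6, Fabp7 and Calcrl missed the threshold against the empty vector (adjusted p 0.187 to 0.437), while Csn2 and Myl10 passed without any of the 4 arrays.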

How the data were processed

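Per the labels' protocols, total RNA was purified on RNeasy columns and labelled with an Affymetrix whole-transcript terminal labelling kit. For the 8 arrays the authors deposited linear intensity values of 28853 probe sets in 1 table. The sources used here do not say how these were background-corrected, summarised or normalised. Values were used as log2(intensity + 1) without further scaling, and sorted values of the arrays lay within 0.07 of their mean.

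Of the probe sets, 21789 carried 1 gene symbol in the platform annotation (19938 symbols) and were tested, 1621 carried several and 5443 none. Where a gene had several probe sets (999 genes), the brightest on average stands for it in the gene lists and the fixed set. The largest falls and rises were ranked over all probe sets. A gene counted as called for the promoters if any of its probe sets was called. Promoters come from a RefSeq table of GRCm38.p6.

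Differences were tested two-sided with limma 3.58.1 in R 4.3.3 (lmFit, and eBayes with trend), fitting 4 group means to the 8 arrays with array number as a block, leaving 3 residual and 7.78 prior degrees of freedom. The p-values were adjusted by Benjamini-Hochberg over all tested probe sets. Across genes, arrays of the same number deviated together from their group means (r of 0.401 to 0.640 over the 6 group pairs), so the numbers in the labels were treated as pairing the arrays. Scripts were tested on simulated data. The number of arrays limits the precision.

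The comparison and the gene lists were chosen with earlier results of these data known, and no list was tested as a set. Named genes are the 15 largest falls and rises past the threshold without overlap between the groups (8 each in the secondary comparisons), predicted genes and olfactory receptors left out, a fixed set of fusion-related genes, and from each list the 4 members with the smallest p. Ccl17, Itgam, Adgrl2, Tet1, Nfxl1 and Trdn were named after their values were seen. A named gene of the empty vector comparison is not reported here. Alternatives were other block terms, a pseudocount of 16, a mean log2 of at least 6, median centring, quantile normalisation, no trend, a fit of 4 arrays, and each array left out.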

Additional observations from a re-analysis of the deposited data

Results flagged for a closer look

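Among the 30 genes with the largest falls and rises against the full-length fusion, 14 also differed between the deletion mutants by limma. Of all tested probe sets, 0.404% were higher and 0.133% lower with delFG2 than with delFG1. The 30 genes were picked on the same delFG2 arrays, which favours such calls. Hoxa7 (-0.82), Hoxa5 (-0.75) and Ms4a4c (-0.71) were lower with delFG2 than with delFG1 on the log2 scale. The stefin A genes Stfa3 (1.32), Stfa2 (1.11) and Csta3 (0.78) were higher with delFG2. So were the neutrophil genes Mmp9 (1.0), Olfm4 (0.81) and Cxcr2 (0.99). Ppbp (1.36), Il6 (1.15), Slfn4 (1.16), Ceacam10 (0.91) and Fcer1a (0.70) were higher with delFG2 as well. Without the replicate block none of these 14 passed, and their adjusted p-values were then 0.606 or above.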

How the results depend on the processing

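Among named genes called for delFG2 against the full-length fusion, none changed direction under any alternative. Other genes and comparisons were not checked for direction in this way. For full length against empty vector the balance of directions turned without the replicate block, from 475 higher and 965 lower to 22 and 5. Counts are of probe sets. For delFG2 against the full-length fusion, 65 were higher and 37 lower. Without the replicate block the counts were 0 and 6, with a random replicate block 0 and 11, without a trend 27 and 21, and in a fit of the 4 arrays with the replicate block, which has 1 residual degree of freedom, 338 and 158. Leaving out single arrays gave 6 to 229 higher and 10 to 95 lower. A pseudocount of 16, a mean log2 of at least 6, centring and quantile normalisation gave 53 to 86 higher and 31 to 41 lower. For delFG2 against delFG1, 117 were called, against 0 without the replicate block, 1 with a random block, 2 without a trend, 258 from 4 arrays and 1 to 313 with single arrays left out. For delFG2 against the empty vector, 110 were called, against 1 without the replicate block, 4 with a random block, 178 at a mean log2 of at least 6, 173 after centring, 44 after quantile normalisation, 17 without a trend and 2 to 1065 with single arrays left out. For full length against empty vector, 1440 were called, against 27 without the replicate block, 217 with a random block and 385 to 2378 with single arrays left out. Of the 51 named genes called for delFG2 against the full-length fusion, 45 lost their call without the replicate block and 6 passed. The causes were not tested. With an array left out, the remaining array of its group is assumed to vary like the other groups. The table holds no detection calls, so low signals such as those of Hoxc6, Hoxb5 and Csn1s1 carry an unknown share of background.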

Other observations

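Several genes were read by more than 1 probe set. Adgrl2, an adhesion G protein-coupled receptor, had 8 probe sets, of which 4 rose with delFG2 against the full-length fusion, by 0.55 to 0.71 (limma adjusted p 0.00426 to 0.043). The other 4 differed by 0.22 to 0.44 and did not pass, with adjusted p-values of 0.194 to 0.549. Tet1, a methylcytosine dioxygenase, was lower by -0.68 in 1 probe set (adjusted p 0.0256), while the others differed by -0.49 and -0.54 and did not pass. Nfxl1 was lower by -0.56 in 1 probe set (adjusted p 0.0278) and by -0.54 in the other (adjusted p 0.0722). Trdn, which encodes triadin, was lower by -0.42 in 1 probe set (adjusted p 0.032), whereas the probe set with its highest signal differed by 0.08 (adjusted p 0.948).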
